A study of Mus musculus with 12 samples.

Results

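The genes described here are 9 regulators of the transcription programme that male germ cells switch on in meiosis and carry into spermatid life: Mybl1, Tcfl5, Rfx2, Sox30, Crem, Fhl5, Tbpl1, Taf7l and Brdt. They were found by their symbols, each of which occurred once in every library, among 23021 entries per library and 22293 symbols that occur once. Their levels were compared across 12 RNA-seq libraries of WT and Zmym3 KO mouse cells, Zmym3 being an X-linked zinc finger gene. SSCs (spermatogonial stem cells) of each genotype were kept in culture, c-KIT+ pre-meiotic cells were derived from them with 100 nM retinoic acid (RA) for 36 h, and spermatocytes (SCs) were sorted from testes. The sort kept large tetraploid cells, mainly pachytene SCs.

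All mice were males of a CBA/C57 background. The KO mice descended from founders made by injecting Cas9 and a pair of guide RNAs against exon 2 of Zmym3, and the KO males studied carried either of a pair of frame-shifting deletions. Which of them the sequenced cells carried was not stated. The cultured groups (WT SSC, KO SSC, WT c-KIT+ and KO c-KIT+) had 2 libraries each, labelled with an age of 2 months. There was 1 SC library per genotype at 5 months and 1 at 7 months, so that age was the only replication of the SC groups. These ages are those of the labels: the methods give a single age between them for the sorted testes, and pups or adults as the source of SSCs. Nothing in the labels says that libraries of a group came from separate cultures or animals, so that the p-values rest on a spread between libraries which may be technical. Cultured cells and sorted SCs differ in source and handling as well as in stage, which cannot be told apart. In bulk RNA, fewer cells of a type and less RNA per cell cannot be told apart either.

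In the mouse testis these regulators form a cascade. MYBL1 (A-MYB) drives pachytene genes and piRNA precursors together with the helix-loop-helix factor TCFL5. RFX2 acts on genes of the sperm flagellum through the X-box. SOX30 is needed for spermatid genes, and CREM, aided by the LIM-domain coactivator FHL5 (ACT), activates genes such as the protamines. TBPL1 (TRF2) and TAF7L are germ cell counterparts of the general factors TBP and TAF7, and BRDT is the testis member of the BET family, which reads acetylated histones.

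Levels are given as FPKM, in which fragments are divided by transcript length and by library depth, and were compared as log2(FPKM + 1), a scale that understates fold changes of weakly expressed genes. Adjusted p-values are from limma with Benjamini-Hochberg adjustment over all genes tested, with a threshold of 0.01, or 0.05 for comparisons among SC libraries. The summed FPKM was between 264434.8 and 303689.9 per library, and the highest of these sums, in WT SSC replicate 1, held 26720.3 FPKM of the microRNA gene Mir3064. Zmym3 stood at 40.2 and 37.4 FPKM in WT SSCs and at 9.19 and 9.76 in KO SSCs. In WT SCs it was already at 0.412 and 0.460 FPKM, so that the label of the KO SCs, at 0.146 and 0.340, has little to be checked on. Spermatogonial markers summed to 403.2 to 450.3 FPKM in SSCs against 34.2 to 52.6 in SCs, and pachytene genes to 39.8 to 45.9 against 4571.5 to 4756.0. Of the 10 spermatogonial markers, 9 were lower in WT SCs than in WT SSCs and 1, Id4, was higher. In WT SCs at 5 months Id4 made up 32.5 of the 34.2 FPKM of that sum. Sertoli, Leydig, peritubular and macrophage markers each summed to at most 8.25 FPKM in SCs, while peritubular and fibroblast markers reached 41.1 to 60.5 FPKM in SSCs.

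Proximal promoters were read for the members from RefSeq on build GRCm38.p6, from 250 bases before to 50 bases after the start site. An entry was found for 7 of the 9 members, Fhl5 with more than one start site, and Mybl1 and Crem had none. Those of Rfx2, Tcfl5 and Taf7l are shown because they hold the MYB motif. Among the changes tested below, Rfx2 also had the largest increase and Taf7l the only decrease between WT SSCs and WT SCs. Capitals mark matches to the MYB motif (CAACGG, its form CAACTG, and both with TAAC in place of CAAC, on either strand), in Rfx2 also GTTGCC, the core of the RFX X-box, and in Taf7l also TATAAA on either strand. The regions are chr17:56830959-56831258 for Rfx2, chr2:180642642-180642941 for Tcfl5 and chrX:134476441-134476740 for Taf7l, all 3 on the minus strand and printed 5′ to 3′.
Rfx2: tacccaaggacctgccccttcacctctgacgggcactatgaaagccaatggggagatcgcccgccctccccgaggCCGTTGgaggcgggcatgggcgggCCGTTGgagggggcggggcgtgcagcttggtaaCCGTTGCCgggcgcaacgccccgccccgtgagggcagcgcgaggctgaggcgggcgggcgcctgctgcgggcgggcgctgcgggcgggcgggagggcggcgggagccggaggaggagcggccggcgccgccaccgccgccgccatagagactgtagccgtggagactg
Tcfl5: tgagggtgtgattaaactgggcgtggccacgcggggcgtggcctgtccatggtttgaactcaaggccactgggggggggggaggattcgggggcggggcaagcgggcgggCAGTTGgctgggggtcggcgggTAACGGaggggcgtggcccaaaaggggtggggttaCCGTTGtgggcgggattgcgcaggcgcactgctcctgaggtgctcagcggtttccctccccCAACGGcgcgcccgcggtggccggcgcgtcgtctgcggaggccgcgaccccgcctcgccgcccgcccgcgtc
Taf7l: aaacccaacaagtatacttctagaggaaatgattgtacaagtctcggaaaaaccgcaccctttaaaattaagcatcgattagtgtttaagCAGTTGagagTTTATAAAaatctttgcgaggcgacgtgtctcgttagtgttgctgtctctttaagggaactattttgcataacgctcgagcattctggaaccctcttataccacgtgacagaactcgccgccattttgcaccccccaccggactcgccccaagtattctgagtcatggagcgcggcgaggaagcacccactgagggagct

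The MYB motif matched 4 times in the Tcfl5 promoter, starting 140, 118, 83 and 22 bases before the start site, and 3 times in that of Rfx2, 175, 151 and 118 bases before it. Of all 32851 promoters of the table, 28.3% held at least 1 match, 0.743% held 3 or more and 0.149% held 4 or more. In Rfx2 the match at 118 bases overlaps the GTTGCC match, which begins 116 bases before the start site and is a sequence found in 12.5% of all promoters. Taf7l held 1 MYB match at 160 bases, an E-box (CACGTG, 7.15% of promoters) at 49 bases and overlapping TATAAA matches (13.6% of promoters) at 150 and 148 bases. Of the other members with an entry, Brdt held an E-box 78 bases before its start, and Fhl5, Tbpl1 and Sox30 held none of the motifs searched. The full cAMP response element (TGACGTCA, 1.79% of promoters) was in no member's window, and its core TGACG (20.8%) was in that of Rfx2. These matches describe letters in a window and show no binding.

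Across cell states, 8 regulators had higher FPKM in every SC library than in any cultured library, and 1, Taf7l, had lower. The share of all genes that separate in this way was not counted. Of the 9, 7 also passed the filter on low values within the culture, and all 7 differed between WT SCs and WT SSCs, 6 as higher and Taf7l as lower, where 85.9% of 13247 genes tested were called, 26.1% as higher and 59.7% as lower. Against WT c-KIT+ cells the calls had the same directions, where 85.8% of genes were called. Mybl1 and Fhl5 passed the filter only through the SC libraries in which they are high, and their levels are given as a description. The median log2 fold change of all genes was -0.89 against SSCs and -0.97 against c-KIT+ cells. A call in itself says little against this background, and the sizes of the changes are given below.

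**Figure D1:**
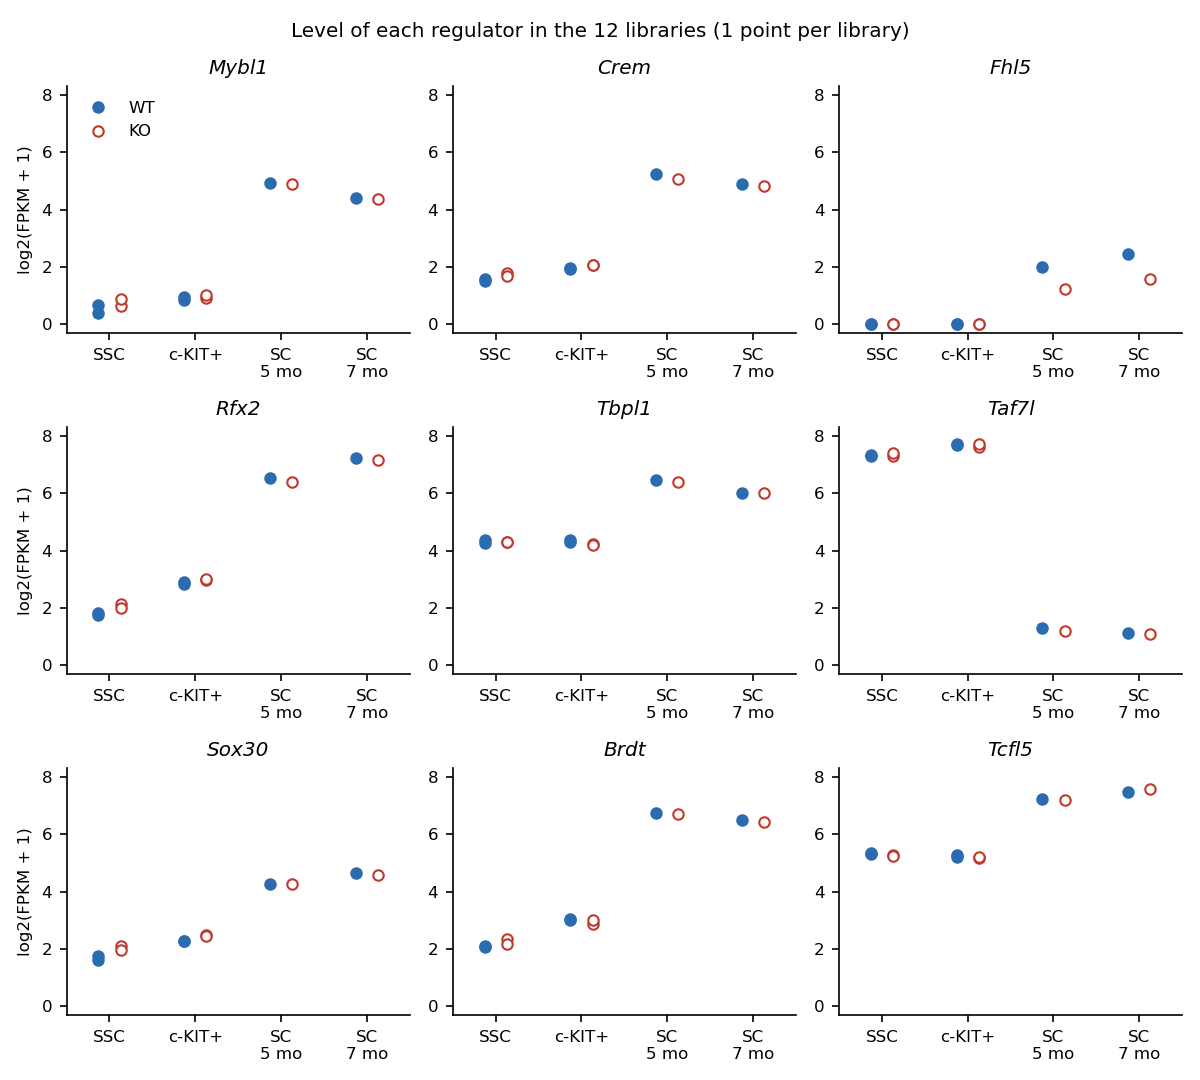
Levels of the 9 regulators as log2(FPKM + 1) (vertical axes) in SSCs, c-KIT+ cells and spermatocytes (SC) at 5 and 7 months (mo). Each point is 1 library, filled for WT and open for KO. Taf7l falls from above 150 FPKM in cultured cells to below 1.5 in spermatocytes, and Fhl5 is the only panel in which WT and KO spermatocytes stand apart at both ages.

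Mybl1, on chromosome 1 of mm9 (9658916 to 9690290), was nearly silent in culture and far higher in SCs. Its FPKM were 0.600 and 0.312 in WT SSCs, 0.549 and 0.843 in KO SSCs, 0.934 and 0.792 in WT c-KIT+ cells, and 0.881 and 1.01 in KO c-KIT+ cells. In SCs it stood at 29.6 (WT) and 28.5 (KO) at 5 months and at 20.0 (WT) and 19.4 (KO) at 7 months. No cultured library reached the lowest SC library, and the mean of WT SCs was 54.4 times that of WT SSCs. Only 1 cultured library reached 1 FPKM, so that Mybl1 was not tested within the culture and no test is given against SCs, through which alone it passed the filter.

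Tcfl5, on chromosome 2 (180356662 to 180377396), was already well expressed in SSCs. Its FPKM were 38.4 and 39.5 in WT SSCs, 37.4 and 36.5 in KO SSCs, 37.4 and 36.0 in WT c-KIT+ cells, and 35.3 and 36.1 in KO c-KIT+ cells. In SCs they were 148 (WT) and 145 (KO) at 5 months and 175 (WT) and 187 (KO) at 7 months. The log2 fold change of WT SCs to WT SSCs was 2.02 (SE 0.12, adjusted p = 1.92e-07), which made Tcfl5 the most abundant member in SCs without being the one that changed most.

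Rfx2, on chromosome 17 (56915320 to 56970431), had the largest increase of all members on the scale of log2(FPKM + 1), whereas the ratio of mean FPKM of WT SCs to WT SSCs was 49.2 for Rfx2 and 54.4 for Mybl1. It was at 2.50 and 2.35 FPKM in WT SSCs, 3.40 and 2.96 in KO SSCs, 6.42 and 6.21 in WT c-KIT+ cells, and 6.92 and 7.02 in KO c-KIT+ cells. In SCs it was at 92.0 (WT) and 83.0 (KO) at 5 months and at 146 (WT) and 140 (KO) at 7 months. The 3 states did not overlap, which was also so for Sox30, Crem, Taf7l and Brdt. How many of all genes separate by state in this way was not counted. The log2 fold change of WT SCs was 5.10 to SSCs (SE 0.25, adjusted p = 4.17e-08) and 4.0 to c-KIT+ cells. Of the genes with a mean of at least 1 FPKM, 13.7% lay below Rfx2 in WT SSCs, 33.5% in WT c-KIT+ cells and 95.3% in WT SCs.

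Sox30, on chromosome 11 (45793812 to 45831494), showed a smaller change of the same direction. Its FPKM were 2.09 and 2.40 in WT SSCs, 3.27 and 2.87 in KO SSCs, 3.84 and 3.82 in WT c-KIT+ cells, and 4.65 and 4.43 in KO c-KIT+ cells. In SCs they were 18.0 (WT) and 18.2 (KO) at 5 months and 23.7 (WT) and 23.0 (KO) at 7 months. WT SCs exceeded WT SSCs by 2.74 (SE 0.14, adjusted p = 6.11e-08) on the log2 scale.

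Crem, on chromosome 18 (3266352 to 3337587), encodes activators and repressors from one locus, which a single FPKM per gene cannot separate. It was at 1.87 and 2.00 FPKM in WT SSCs, 2.45 and 2.25 in KO SSCs, 2.87 and 2.80 in WT c-KIT+ cells, and 3.21 and 3.18 in KO c-KIT+ cells. SCs held 36.8 (WT) and 32.4 (KO) at 5 months and 28.4 (WT) and 27.1 (KO) at 7 months. The log2 fold change of WT SCs to WT SSCs was 3.51 (SE 0.12, adjusted p = 3.91e-09).

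Fhl5, the coactivator of CREM, on chromosome 4 (25127056 to 25170023), was listed at 0 in all 8 cultured libraries. In SCs it was at 3.02 (WT) and 1.34 (KO) FPKM at 5 months and at 4.50 (WT) and 1.97 (KO) at 7 months. Fhl5 passed the filter on low values only through the SC libraries, so that no test of the difference and no fold are given. These levels rest on few reads. In the WT library at 5 months, the only one with confidence limits, Fhl5 corresponded to 64 fragments and Mybl1 to 2512.

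Of the members that belong to the basal transcription machinery, Tbpl1 and Taf7l went opposite ways. Tbpl1, on chromosome 10 (22423683 to 22451253), was at 18.1 and 19.7 FPKM in WT SSCs, 18.9 and 18.5 in KO SSCs, 19.8 and 18.6 in WT c-KIT+ cells, and 17.6 and 17.4 in KO c-KIT+ cells. In SCs it was at 86.4 (WT) and 82.2 (KO) at 5 months and at 62.5 (WT) and 62.9 (KO) at 7 months. Its log2 fold change of WT SCs to WT SSCs, 1.91 (SE 0.16, adjusted p = 2.05e-06), was the smallest of the 6 increases tested.

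Taf7l, on chromosome X (130994655 to 131011029), was the most abundant member in culture and the least abundant in SCs. Its FPKM were 157 and 160 in WT SSCs, 154 and 166 in KO SSCs, 206 and 202 in WT c-KIT+ cells, and 193 and 206 in KO c-KIT+ cells. In SCs only 1.47 (WT) and 1.31 (KO) were left at 5 months and 1.19 (WT) and 1.12 (KO) at 7 months. The level in WT SSCs was 119 times that in WT SCs, and the log2 fold change of SCs to SSCs was -6.10 (SE 0.08, adjusted p = 2.96e-11). In WT SSCs 98.5% of the expressed genes lay below Taf7l, and in WT SCs 5.29%.

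The X chromosome is transcriptionally silenced in pachytene SCs, a step known as meiotic sex chromosome inactivation. Of 486 X-linked genes tested, 458 were lower and 12 higher in WT SCs than in WT SSCs, with a median log2 fold change of -2.62. The 12754 autosomal genes tested had a median of -0.84, with 7450 lower and 3449 higher. The value of Taf7l was thus far below the X-linked median, and only 5 X-linked genes and 17 autosomal genes were more negative. How much of the change of Taf7l belongs to its chromosome was not tested.

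A related gene on an autosome showed the reverse pattern. RefSeq gives the gene 4933416C03Rik the name Taf7l2 and places it on chromosome 10 of GRCm38.p6; it was chosen after its values were seen. 4933416C03Rik was at 10.8 and 11.5 FPKM in WT SSCs, 15.4 and 15.2 in WT c-KIT+ cells, and 86.8 and 68.5 in WT SCs at 5 and 7 months. Its log2 fold change of WT SCs to WT SSCs was 2.69 (SE 0.12, adjusted p = 1.91e-08). KO SSCs held 10.2 and 10.1 FPKM, KO c-KIT+ cells 14.7 and 16.8, and KO SCs 82.6 and 73.3. The transcripts of Taf7l and 4933416C03Rik shared none of their 50-base windows, of which there were 2003 and 2205. The general factor Taf7 itself fell with Taf7l, from 44.7 and 42.1 FPKM in WT SSCs to 6.79 and 4.50 in WT SCs.

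Brdt, on chromosome 5 (107760213 to 107816077), had an SC to SSC ratio of mean FPKM in WT of 29.4. It was at 3.35 and 3.22 FPKM in WT SSCs, 4.05 and 3.51 in KO SSCs, 7.01 and 7.19 in WT c-KIT+ cells, and 6.36 and 7.13 in KO c-KIT+ cells. In SCs it was at 105 (WT) and 104 (KO) at 5 months and at 88.0 (WT) and 84.4 (KO) at 7 months. WT SCs exceeded WT SSCs by 4.50 (SE 0.12, adjusted p = 7.23e-10) on the log2 scale.

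Ordered by mean FPKM, WT SSCs ran from Taf7l at 158 ± 1.63 (SD, n = 2) through Tcfl5 at 39.0 ± 0.79 and Tbpl1 at 18.9 ± 1.10 to Brdt at 3.28 ± 0.09, Rfx2 at 2.42 ± 0.11, Sox30 at 2.25 ± 0.22, Crem at 1.93 ± 0.10, Mybl1 at 0.456 ± 0.204 and Fhl5, listed at 0. Only Rfx2 and Sox30 overlapped among neighbours in that order. WT SCs ran from Tcfl5 at 162 ± 19.3 (SD, n = 2, 1 per age) through Rfx2 at 119 ± 38.6, Brdt at 96.4 ± 11.8, Tbpl1 at 74.5 ± 16.9, Crem at 32.6 ± 5.91, Mybl1 at 24.8 ± 6.73 and Sox30 at 20.8 ± 4.07 to Fhl5 at 3.76 ± 1.05 and Taf7l at 1.33 ± 0.20. Here Rfx2 overlapped Brdt, and Mybl1 overlapped both Crem and Sox30. The order of the members in SCs was therefore not that in SSCs, and Taf7l moved from the top of it to the bottom.

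Of 22 related genes, 17 passed the filter within the culture, and 14 of these were lower and 1 higher in WT SCs than in WT SSCs, where 59.7% of all genes tested were lower. Fhl4, Rfx4 and Gtf2a1l passed it only with the SC libraries and are given as levels. Some of the lower genes, such as Fhl3, passed it only through the culture. The median log2 fold change of the 20 genes tested was -1.17 beside -0.89 for all genes. The list holds many genes that somatic cells express as well, and the part of this in the values was not tested.

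Within single families, levels in WT SSCs and WT SCs were ordered differently. Mybl2, the MYB gene of dividing cells, was at 15.5 and 15.1 FPKM in WT SSCs and at 1.35 and 1.36 in WT SCs, where Mybl1 was at 29.6 and 20.0. Fhl3 fell from 30.3 and 24.0 FPKM to 0 and 0.0874. Fhl4, a testis gene of the same family, was at 0.284 and 0.319 FPKM in WT SSCs and at 326 and 264 in WT SCs, far above Fhl5.

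In the RFX family, Rfx4 was listed at 0 and 0.0213 FPKM in WT SSCs and at 21.3 and 23.1 in WT SCs, while Rfx1 was at 12.7 and 11.1 against 1.52 and 3.34 and Rfx3 at 3.73 and 3.48 against 0.489 and 0.404. Gtf2a1l, the germ cell counterpart of a TFIIA subunit that works with TBP family proteins, was at 0.0264 and 0.0937 FPKM in WT SSCs and at 85.3 and 84.3 in WT SCs. Its ubiquitous counterpart Gtf2a1 was at 21.6 and 22.1 against 11.7 and 7.60. Tbp was higher in SCs, like Tbpl1, at 25.0 and 26.3 FPKM in WT SSCs and at 66.0 and 57.2 in WT SCs. Creb1 stood at 4.93 and 4.83 against 1.62 and 1.44, and Atf1 at 17.5 and 15.7 against 16.8 and 17.4.

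**Figure D2:**
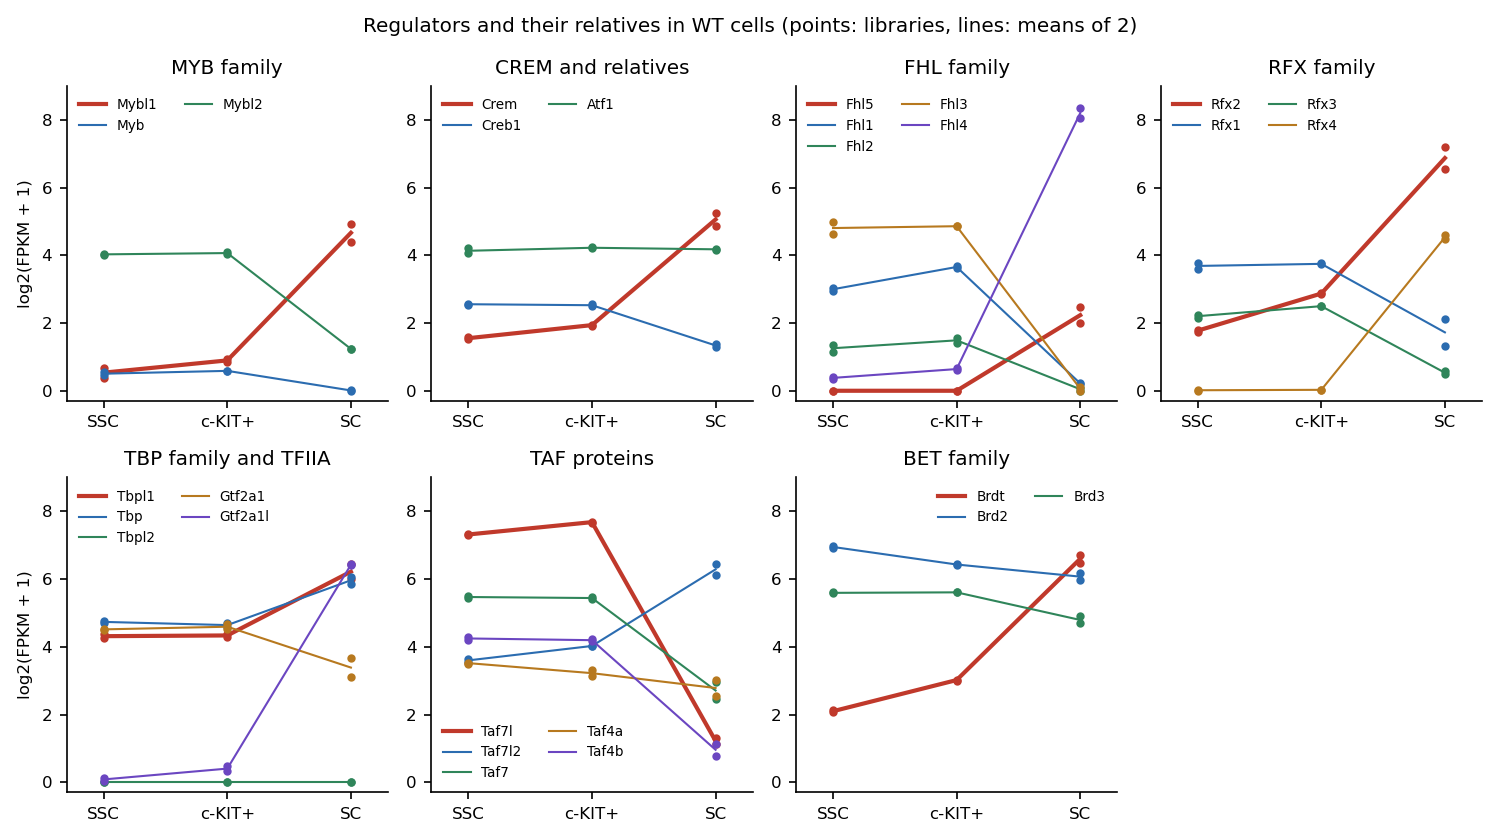
Levels in WT cells as log2(FPKM + 1) (vertical axes) for the regulators (thick lines) and their relatives (thin lines) in SSCs, c-KIT+ cells and spermatocytes (SC, 5 and 7 months). Points are libraries and lines join the means of 2 libraries. Fhl4 reaches 326 and 264 FPKM in spermatocytes, where Fhl5 is at 3.02 and 4.50, and Taf7l and Taf7l2 cross.

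Lists of pathway genes that include targets of these regulators were also compared. Of 12 piRNA pathway genes, a set to which targets of MYBL1 belong, 9 were higher and 2 lower in WT SCs than in WT SSCs, with a median of 1.53. Piwil1 went from 4.81 and 4.51 to 358 and 405 FPKM. The ratio of mean FPKM of WT SCs to WT SSCs was below 1 for Mov10l1 (0.561), Asz1 (0.462) and Piwil2 (0.908). Of 13 cilium and flagellum genes, among which RFX2 has targets, 9 passed the filter within the culture and all 9 were higher, and Rsph1 went from 1.98 and 2.10 to 1934 and 1797 FPKM. Of 12 spermatid genes only 1 passed the filter within the culture. The summed FPKM of the 12 was at most 12.7 in WT SSCs and 640.5 to 642.5 in WT SCs, although the sort was for tetraploid cells. Prm1 was listed at 0 in WT SSCs and was at 186 and 107 FPKM in WT SCs. The study cautioned that the sorted cells may hold a minor contamination of secondary spermatocytes. For all genes the median was -0.89, with 26.1% called as higher and 59.7% as lower. The part of the regulators in these changes was not tested.

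After RA treatment of cultured SSCs, higher levels were found of Rfx2, Brdt, Sox30, Crem and Taf7l. In WT, 5 of the 7 members tested rose and none fell, where 40.7% of 11981 genes were called and 24.9% were higher. In KO the same 5 rose, where 40.5% of genes were called. Rfx2 changed most, by 1.10 (SE 0.07, adjusted p = 8.71e-06) in WT and 0.93 (SE 0.07, adjusted p = 2.02e-05) in KO on the log2 scale. Brdt followed with 0.92 (SE 0.08, adjusted p = 3.35e-05) and 0.70 (SE 0.08, adjusted p = 0.000154). In FPKM these were 2.61-fold and 2.16-fold in WT for Rfx2 and Brdt, respectively.

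The other increases were smaller. Sox30 rose by 0.57 (SE 0.08, adjusted p = 0.000469) in WT and 0.45 (SE 0.08, adjusted p = 0.00177) in KO. Taf7l rose by 0.36 (SE 0.06, adjusted p = 0.000692) and 0.32 (SE 0.06, adjusted p = 0.00142), from a level that was already the highest of the members. Crem rose by 0.39 (SE 0.07, adjusted p = 0.00213) and 0.32 (SE 0.07, adjusted p = 0.00522). For none of the 5 did c-KIT+ libraries overlap SSC libraries of their genotype. These 5 were picked by their calls, with 2 libraries a group, so this separation is no further support. The share of all genes that separate so was not counted.

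Some of these calls rested on single libraries. In WT the call of Crem was lost without WT SSC replicate 1 (0.35, adjusted p = 0.0158), WT c-KIT+ replicate 1 (0.37, adjusted p = 0.0166) or WT c-KIT+ replicate 2 (0.40, adjusted p = 0.0127). In KO that of Crem was lost without any 1 of the 4 KO libraries, with adjusted p of up to 0.0408. That of Sox30 in KO was lost without KO SSC replicate 2 (0.38, adjusted p = 0.0168) or KO c-KIT+ replicate 1 (0.42, adjusted p = 0.0119), and that of Taf7l without KO SSC replicate 1 (0.27, adjusted p = 0.0147). After quantile normalization Crem (0.26, adjusted p = 0.0208 in WT and 0.20, adjusted p = 0.0567 in KO) and in KO also Sox30 (0.35, adjusted p = 0.0101) missed the threshold. In KO, Crem also missed it without the filter (adjusted p = 0.0117), with equal totals (0.0122), with median-ratio scaling (0.0135) and with the compared groups alone (0.0145). The calls of Rfx2 and Brdt passed under every alternative run in both genotypes.

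Tbpl1 and Tcfl5 did not pass the test in either genotype. Tbpl1 differed by 0.02 (SE 0.05, adjusted p = 0.757) in WT and -0.09 (SE 0.05, adjusted p = 0.195) in KO. Tcfl5 differed by -0.08 (SE 0.04, adjusted p = 0.133) in WT and -0.05 (SE 0.04, adjusted p = 0.377) in KO. Fhl5 stayed listed at 0, and Mybl1 was below the filter.

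RA did not bring the members to the levels of SCs. Rfx2 in WT SCs was 18.9 times its mean in WT c-KIT+ cells, and Brdt 13.6 times. For Mybl1 the factor was 28.7, for Crem 11.5 and for Sox30 5.44. The c-KIT+ cells otherwise carried the signs of the RA response: Stra8, the RA-induced gene of meiotic entry, went from 2.10 and 1.54 to 627 and 608 FPKM in WT. In the list of 14 other regulators of male meiosis, to which Stra8 itself belongs, 12 were tested. Of these, 6 were higher and 1 lower in WT, where 24.9% of all genes tested were higher and 15.9% lower.

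**Figure D3:**
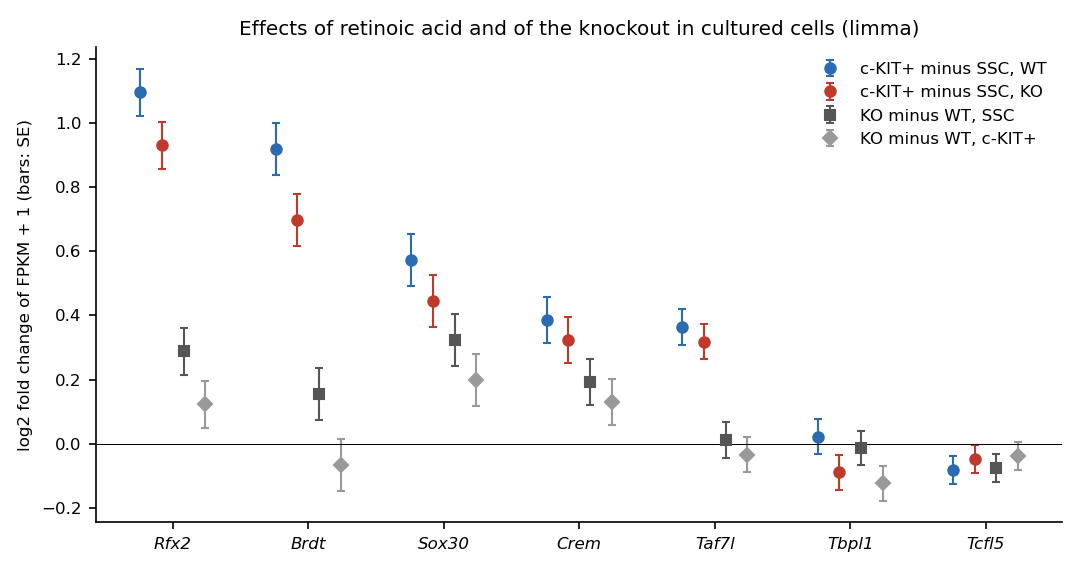
Log2 fold changes of FPKM + 1 (vertical axis) in cultured cells for the 7 regulators that passed the filter. Circles show c-KIT+ cells against SSCs in WT and KO, squares and diamonds KO against WT in SSCs and c-KIT+ cells, and bars the SE of the limma fit. The RA effects on Rfx2 (1.10 in WT) and Brdt (0.92 in WT) are the largest, and no KO effect exceeds 0.32.

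The question whether loss of Zmym3 alters these regulators before meiosis was addressed in SSCs and c-KIT+ cells. In SSCs none of the 7 members tested was called, where 4.9% of genes were. Sox30 was 0.32 (SE 0.08, adjusted p = 0.0345) and Rfx2 0.29 (SE 0.07, adjusted p = 0.0373) above WT on the log2 scale. Both fell short of the threshold of 0.01. Their adjusted p lie under 0.05, the threshold used among SC libraries, so calls in SSCs and in SCs are not on equal terms. Crem was 0.19 (SE 0.07, adjusted p = 0.123) and Brdt 0.16 (SE 0.08, adjusted p = 0.250) above WT. The values of Taf7l, Tbpl1 and Tcfl5 were 0.01, -0.01 and -0.07. The 95% limits of all 7 lay between -0.17 and 0.51.

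In c-KIT+ cells none of the 7 was called either, where 2.7% of genes were. The values ran from -0.12 for Tbpl1 (SE 0.05, adjusted p = 0.221) to 0.20 for Sox30 (SE 0.08, adjusted p = 0.193), with 95% limits between -0.25 and 0.38. The interaction of KO and RA asks whether the RA effect itself differs between genotypes. It was called for 0 of the 7 members and for 0% of all genes, although 865 of 11981 genes had an unadjusted p under 0.05. Brdt had the largest value among the members, -0.22 (SE 0.11, adjusted p = 0.725), and 6 of the 7 values were below 0. Control libraries are shared between these comparisons. In SSCs and c-KIT+ cells the list of peritubular and fibroblast markers moved with genotype, at 59.1 to 60.5 FPKM in WT SSCs against 41.1 to 42.3 in KO SSCs and at 61.4 to 61.8 in WT c-KIT+ cells against 41.3 to 43.6 in KO. Its part in the members' values was not tested.

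In SCs, Fhl5 was lower in KO than in WT and the other 8 regulators did not pass the test. At 5 months Fhl5 was at 3.02 FPKM in WT and 1.34 in KO, and at 7 months at 4.50 in WT and 1.97 in KO, ratios of KO to WT of 0.442 and 0.438. The 2 KO libraries lay below both WT libraries, but Fhl5 was picked by its call, so this separation is no further support. The log2 fold change was -0.84 (SE 0.11, adjusted p = 0.0450), at a threshold of 0.05 and with 1.67% of 9350 genes called, 0.332% as higher and 1.34% as lower. In reads, about 64, 32, 89 and 38 fragments stood behind the libraries of WT and KO at 5 months and WT and KO at 7 months.

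The call of Fhl5 was not stable, while its direction was. It was lost with a pseudocount of 0.1 (-1.14, adjusted p = 0.0581), without the filter (adjusted p = 0.347), with equal totals (-0.82, adjusted p = 0.0634), without the variance trend (adjusted p = 0.0715) and without age in the model (adjusted p = 1.00). It was also lost without any 1 of the 4 libraries, with values of -1.06 without WT at 5 months, -0.66 without KO at 5 months, -0.61 without WT at 7 months and -1.01 without KO at 7 months. In these fits of 3 libraries age could not be kept as a term. It passed after quantile normalization and median-ratio scaling.

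The intervals of the other members rest on 1 residual degree of freedom among the 4 libraries and 4.28 borrowed from all genes, and fits without 1 library, and so without age, gave values outside them (from -0.48 to 0.27 for Rfx2). Their log2 differences at a single age lay between -0.18 and 0.02 at 5 months and between -0.07 and 0.09 at 7 months. Crem was the lowest of them at -0.12 (SE 0.06, adjusted p = 0.530), and Rfx2 was at -0.11 (SE 0.04, adjusted p = 0.450). Mybl1 was at -0.05, Brdt at -0.04, Tbpl1 at -0.03, Sox30 at -0.01 and Tcfl5 at 0.03, with adjusted p from 0.852 to 0.980. Taf7l, near the filter at -0.07 (SE 0.12, adjusted p = 0.904), had the widest limits, from -0.37 to 0.22. For Mybl1, Brdt and Tbpl1 the 95% limits correspond to 0.875 to 1.07, 0.905 to 1.05 and 0.901 to 1.06 times the WT level.

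**Figure D4:**
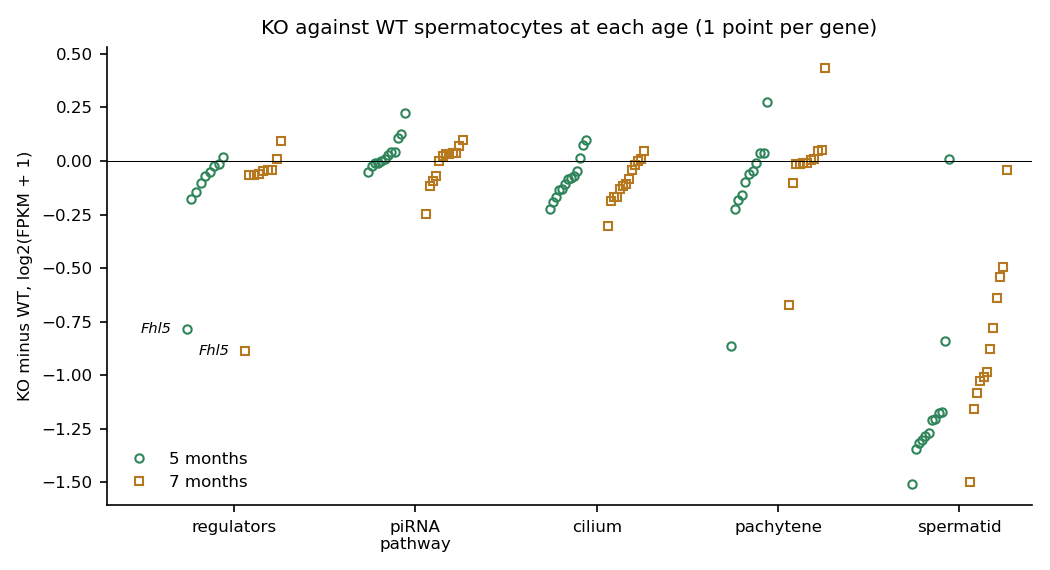
Difference of KO and WT spermatocytes in log2(FPKM + 1) (vertical axis) at 5 months (circles) and 7 months (squares). Each point is 1 gene of the 9 regulators or of the piRNA pathway, cilium, pachytene or spermatid list, with 1 library per genotype and age. Among the 9 regulators only Fhl5 lies near the spermatid genes, at -0.78 and -0.89, and the other regulators lie between -0.18 and 0.09.

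Kif17, of the related genes, and most spermatid genes were lower as well. Kif17, a kinesin that in the mouse testis carries FHL5 out of the nucleus, was at 2.39 (WT) and 0.928 (KO) FPKM at 5 months and 5.35 (WT) and 2.70 (KO) at 7 months, with KO minus WT at -0.80 on the log2 scale (SE 0.11, adjusted p = 0.0461). It was the only one called of 16 related genes tested, of which 6 had values above 0 and 10 below. The alternatives were run for the members only. Rfx1, a relative of Rfx2, was not called, with ratios of KO to WT of 0.417 at 5 months and 0.459 at 7 months. Of the other regulators of male meiosis, Spz1, a testis helix-loop-helix gene, was called among 10 tested, at 10.0 (WT) and 4.55 (KO) FPKM at 5 months and 13.7 (WT) and 6.60 (KO) at 7 months (-0.97, SE 0.08, adjusted p = 0.0289).

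Of 12 spermatid genes, 8 were called lower in KO SCs, where 1.34% of all genes tested were. All 12 fold changes were below 0, and the median was -1.08 beside -0.01 for all genes. Prm1, Prm2, Odf1 and Oaz3 of this list are among the genes the study itself reported as lower in KO SCs. For them these values are no independent support. The study also cautioned that secondary spermatocytes, which it says KO testes lack, may have entered the sort in small numbers. In its account, highly expressed genes such as the protamines could then differ between WT and KO. The part of such cells in these values was not tested. Prm2, a protamine, fell by 1.39 (SE 0.06, adjusted p = 0.00702), from 105 to 42.5 FPKM at 5 months and from 135 to 47.2 at 7 months. The ratio of KO to WT of these 12 genes had a median of 0.394 at 5 months and 0.496 at 7 months, beside 0.442 and 0.438 for Fhl5. Acr, the gene of the acrosomal protease acrosin, was the exception, at 55.5 (WT) and 55.9 (KO) FPKM at 5 months. None of 12 piRNA pathway genes and none of 13 cilium genes was called, with medians of 0.02 and -0.08. Of 11 pachytene genes 1 was called lower, with 4 values above 0, 7 below and a median of -0.035. Acrv1 of that list had ratios of KO to WT of 0.463 at 5 months and 0.565 at 7 months. The 7 Sertoli markers measured were above WT in KO at both ages, and their sum was 1.80 and 2.37 FPKM in WT against 3.47 and 8.25 in KO, Wt1 being at 0.412 and 0.368 in WT against 0.816 and 2.28 in KO. The part of spermatid RNA or of Sertoli cells in the value of Fhl5 was not tested.

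Whether the KO effect in SCs differed from that in SSCs was tested as an interaction. None of the 7 members that also passed the filter within the culture was called, where 0.702% of 13247 genes were. Tcfl5 was at 0.11 and the others of these 7 were below 0, with adjusted p from 0.507 to 0.999. No test is given for Mybl1 and Fhl5, which passed the filter only through the SC libraries. The value of Fhl5, -0.84, was set entirely by SCs since the gene was listed at 0 in SSCs.

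Differences between SC libraries of 5 and 7 months were larger than those between genotypes for all members but Fhl5. This term of the fit was read after the values had been seen. It called 8 of the 9 members, where 44.6% of 9350 genes were called, and each member moved in the same direction in WT and in KO. Each age was 1 WT and 1 KO library, and age and collection of the cells cannot be told apart.

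Rfx2, Sox30, Tcfl5 and Fhl5 were higher at 7 months. Rfx2 was higher by 0.71 (SE 0.04, adjusted p = 0.00101), or 1.59-fold in WT and 1.68-fold in KO by FPKM. Sox30 was higher by 0.35 (SE 0.06, adjusted p = 0.00923) and Tcfl5 by 0.30 (SE 0.05, adjusted p = 0.00636). Fhl5 was higher by 0.40 (SE 0.11, adjusted p = 0.0340), a call lost without the filter (adjusted p = 0.142), after quantile normalization (adjusted p = 0.0648) and without genotype in the model (adjusted p = 0.481).

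Mybl1, Tbpl1, Crem and Brdt were lower at 7 months. Mybl1 differed by -0.53 (SE 0.06, adjusted p = 0.00265), with 0.678 times the level of 5 months in WT and 0.682 times in KO. Tbpl1 differed by -0.42 (SE 0.05, adjusted p = 0.00291), Crem by -0.31 (SE 0.06, adjusted p = 0.0121) and Brdt by -0.27 (SE 0.04, adjusted p = 0.00691). Taf7l differed by -0.15 (SE 0.12, adjusted p = 0.350). With 3 libraries, and so without genotype in the model, Rfx2, Mybl1 and Tbpl1 still passed. Crem was lost without any 1 library (values from -0.39 to -0.22), and Fhl5 likewise, at 0.79 without WT at 5 months, 0.01 without KO at 5 months, -0.04 without WT at 7 months and 0.84 without KO at 7 months. Brdt was lost without WT at 5 months (-0.27), KO at 5 months (-0.28) or KO at 7 months (-0.24). Sox30 (0.34 and 0.36) and Tcfl5 (0.32 and 0.29) were lost without WT or KO at 5 months.

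Of the 11 pachytene genes, 3 were higher and 3 lower at 7 months, with a median of -0.06, where 23.6% of all genes were higher and 21% lower. Hist1h1t, a linker histone of mid and late pachytene that was chosen after its values were seen, was at 0.865 (WT) and 1.26 (KO) FPKM at 5 months and at 6.57 (WT) and 9.23 (KO) at 7 months. Ybx2, a germ cell Y-box protein that binds stored mRNA, was at 1145 (WT) and 1101 (KO) at 5 months and at 2170 (WT) and 2163 (KO) at 7 months. Of the 12 spermatid genes, 9 were higher and 1 was lower at 7 months, with a median of 0.36, and of the 12 piRNA pathway genes 1 was higher and 5 were lower, with a median of -0.13. The stage composition of the libraries was not measured, and its part in these values was not tested.

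**Figure D5:**
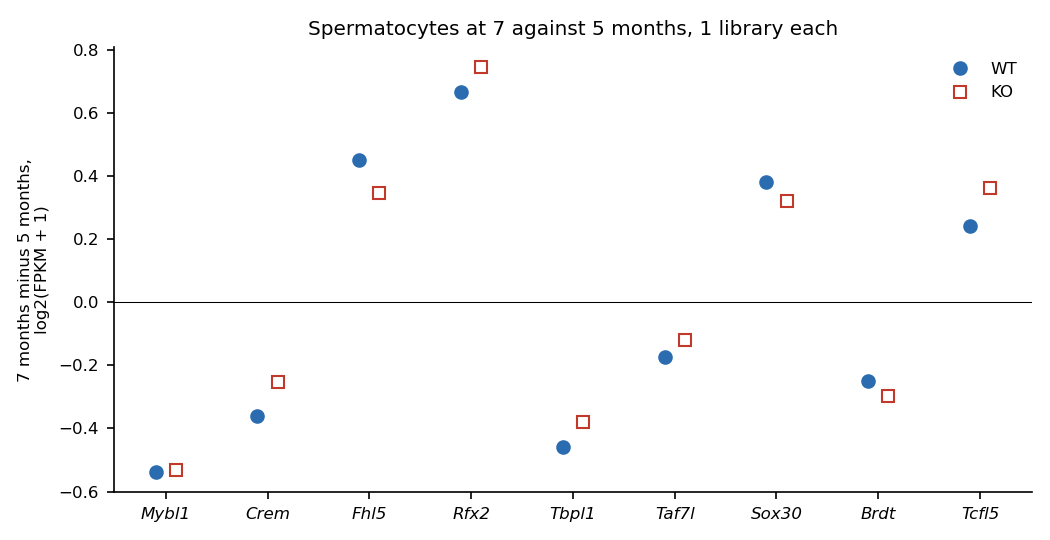
Difference between 7 and 5 months in log2(FPKM + 1) (vertical axis) for the 9 regulators in WT (circles) and KO (open squares) spermatocytes, each point being the difference of 1 library at each age. The values of WT and KO lie close together for each gene, from about -0.54 for Mybl1 to 0.67 (WT) and 0.75 (KO) for Rfx2.

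For each member the gene outside the list with the most similar profile was taken, by Pearson's r of log2(FPKM + 1) over 12 libraries among 13247 genes. It was Haus1 for Mybl1, Spata17 for Crem, Hsfy2 for Fhl5, Lpcat3 for Rfx2 and Bcap29 for Tbpl1. It was Usp26 for Taf7l, 4930572J05Rik for Sox30, Wdr35 for Brdt and Lef1 for Tcfl5. The r values lay between 0.997 for Sox30 and 0.9999 for Taf7l, and they mostly describe the step between cultured cells and SCs that all these libraries share. Usp26 was at 45.3 and 47.2 FPKM in WT SSCs and at 0.170 and 0.129 in WT SCs. Hsfy2, like Fhl5, was listed at 0 in culture and was at 1.49 (WT) and 0.734 (KO) FPKM in SCs at 5 months and at 1.85 (WT) and 0.972 (KO) at 7 months.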

How the data were processed

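RNA-seq of 12 libraries was used as deposited. FPKM per gene were computed by the authors with Cufflinks 2.0.2 and Cuffdiff from TopHat2 2.0.6 alignments on mm9, as the submitters' processing notes name them; the annotation was not given in the sources used here. Read totals are unknown. The confidence limits of 1 library (WT SCs at 5 months) gave whole fragments, within 0.02, for 78.9% of 4636 weakly expressed genes, and relative depths of 0.912 to 1.212 gave approximate fragments in the others. Symbols occurring more than once (259, with 728 entries) were left out.

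log2(FPKM + 1) was fitted with limma 3.58.1 (R 4.3.3) with a variance trend, keeping genes that reached 1 FPKM in 2 or more libraries of the fit. The fits were one of the 8 cultured libraries (4 groups), one of the 4 SC libraries (genotype and age) and one of all 12 (6 groups). In the last, the 2 ages stood as the 2 samples of an SC group. P-values were adjusted by Benjamini-Hochberg over all genes. Intervals are 95% limits of these fits. The scripts (also Python 3.11.15, pandas 2.3.3 and numpy 2.4.6) were tested on simulated data. Alternatives were another pseudocount (0.1), no filter, other scalings, no variance trend, other model terms and leaving out each library.

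The members and gene lists were chosen with earlier results of these data known, and the age comparison was added after the values were seen. Named were all members, Zmym3, up to 4 called genes of each list with the largest change (the 2 most abundant where none was called) and the most similar gene of each member by Pearson's r. Other genes, among them relatives such as Mybl2, Rfx1, Taf7, Gtf2a1, Tbp, Creb1 and Atf1, Acr, Wt1, Hist1h1t and 4933416C03Rik, were chosen after their values were seen. The levels of 1 relative are not reported here.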

Additional observations from a re-analysis of the deposited data

How the results depend on the processing

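The 7 calls between SCs and cultured cells given above held under all alternatives run. Counts of genes called moved with the setting. KO in SSCs gave 587 genes, 275 without the filter and 346 with the compared groups alone. KO in c-KIT+ cells gave 324, then 140 without the filter, 129 with the compared groups alone and 213 with a replicate block. The interaction of KO and RA gave 0, and 4 with equal totals. KO in SCs gave 156, then 36 with the pseudocount of 0.1, 37 with equal totals, 248 after quantile normalization, 235 with median-ratio scaling, and 0 without the filter, without the variance trend and without age; Fhl5 was the 1 member called, and 0 members were called with the pseudocount of 0.1, equal totals, no filter, no variance trend and no age. Age gave 4169, and 2221 without the filter. The interaction of KO and state gave 93, and 31 with the pseudocount of 0.1. RA in KO called 5 members, and 3 after quantile normalization.

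Leaving out 1 library in turn gave 3129 to 3565 genes and 4 to 5 members for RA in WT, 3253 to 3973 and 3 to 4 for RA in KO, 117 to 228 genes for KO in SSCs, 78 to 144 for KO in c-KIT+ cells, 0 to 2 for their interaction, 63 to 213 genes and 0 members for KO in SCs, 508 to 2078 genes and 3 to 6 members for age, 10635 to 11143 genes for SCs against SSCs, 10640 to 11174 for SCs against c-KIT+ cells and 3 to 245 for KO and state. Fewer SC libraries leave no room for age beside genotype.

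Small values changed sign. With equal totals Tbpl1 in KO SSCs was 0.059, Tcfl5 in the interaction of KO and RA -0.049 and Sox30 in KO SCs 0.015. After quantile normalization Taf7l in KO c-KIT+ cells was 0.0075, Sox30 in KO SCs 0.013, Brdt in KO SCs 0.0026 and Tbpl1 for KO and state 0.021. With median-ratio scaling Tbpl1 under RA in WT was -0.047, Taf7l in KO SSCs -0.0023, Sox30 in KO SCs 0.0071 and Tbpl1 for KO and state 0.0012. Without single libraries, ranges were -0.035 to 0.078 for Tbpl1 under RA in WT, -0.070 to 0.043 for Tbpl1 and -0.039 to 0.064 for Taf7l in KO SSCs, -0.14 to 0.0056 for Brdt and -0.081 to 0.014 for Taf7l in KO c-KIT+ cells, and -0.10 to 0.0050 for Taf7l in their interaction. In KO SCs they were -0.18 to 0.11 for Brdt, -0.30 to 0.06 for Crem, -0.32 to 0.22 for Mybl1, -0.48 to 0.27 for Rfx2, -0.20 to 0.18 for Sox30, -0.16 to 0.014 for Taf7l, -0.26 to 0.20 for Tbpl1 and -0.15 to 0.22 for Tcfl5. For age the range was -0.044 to 0.84 for Fhl5, and for KO and state -0.17 to 0.0014 for Taf7l, -0.25 to 0.21 for Tbpl1 and -0.07 to 0.29 for Tcfl5. The cause was not tested.

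Deviations of same-numbered cultured libraries correlated by -0.072 to 0.283, so the numbers were not taken as pairs. The replicate block changed no call of a member. Fhl5 and Taf7l in SCs are limited by few fragments.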
